A study of Mus musculus with 31 samples.

Results

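The transporters described here are the members of the ATP-binding cassette (ABC) family, the organic anion transporting polypeptides (Slco) and the organic ion carriers of family Slc22. They were taken as every array probe annotated to 1 gene whose symbol belongs to subfamilies Abca to Abcg, to Slco or to Slc22a. This gave 64 probes of 60 genes, of 16642 probes of 15095 genes with a 1-gene annotation. The ABC family had 37 probes of 36 genes, Slco 13 probes of 10 genes and Slc22 14 probes of 14 genes, and all 64 probes had a value on every array. RNA was from whole livers of 31 BxD/TyJ strains (BXD below, numbered between 1 and 42), recombinant inbred lines that carry at each locus either the C57BL/6J or the DBA/2J allele. For each strain, RNA of 3 males aged 8 weeks was pooled into 1 sample, labelled with Alexa Fluor 647 and hybridised on 1 array. The reference on every array was a pool of liver RNA from 9 C57BL/6J males of the same age, labelled with Alexa Fluor 555. No strain had a second array and the dyes were never exchanged, so differences between mice within a strain cannot be seen. Values are log2 ratios of strain over reference, a reading that is likely but not stated in the sources used here, as set out with the processing. Every direction below rests on it.

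ABC proteins use ATP to move lipids, bile constituents, drugs and conjugates across membranes, and in the hepatocyte several of them sit in the canalicular membrane, where they form bile. Slco and Slc22 proteins are carriers without ATPase activity. In liver they take up bile acids, bilirubin, hormones and drugs from the blood across the sinusoidal membrane, and in kidney Slc22 proteins secrete organic ions into urine. Some ABC proteins act inside the cell, in peroxisomes, lysosomes and mitochondria, and subfamilies Abce and Abcf have no membrane domain and act with ribosomes.

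Depth could not be judged because no intensities were used, and precision is set by the count of arrays. The values of the arrays had been brought to the same distribution, and the median of all probe means was 0.00. The arrays of strains 23, 28, 40 and 42 stood apart, with a median correlation with the other arrays between 0.06 and 0.37, against 0.57 or more for the other 27. Every 8th probe, by identifier, had a low mean (median -0.58, against 0.04 for probes at other places), and 84.1% of these probes were lower than the reference. 8 members lie at such places, namely Abcb1b, Abcc3, Abcc9, Abcg1, Abcg2, Abcg4, Abcg8 and Slc22a2. Their means are given with a place correction as well, in which the median of all probes with the same remainder on division of the identifier by 8 was subtracted on each array. The ratios say nothing of how abundant a transporter is, and levels are not compared between genes. Since the tissue is whole liver, fewer cells of a type and less RNA per cell cannot be told apart.

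The question of the first comparison was which transporters differed, on average over the strains, from C57BL/6J. Of the 64 member probes, 21 were higher than the reference, 28 were lower and 15 did not pass (limma over all 21765 tested probes, Benjamini-Hochberg adjusted p under 0.05). Over all tested probes 75.0% were called, 37.4% as higher and 37.6% as lower, so the number of members called was near the background. The median of the member means was -0.08. In the ABC family 13 probes were higher, 14 lower and 10 not called, in Slco 5 higher, 6 lower and 2 not called, and in Slc22 3 higher, 8 lower and 3 not called. The median mean was 0.01 for ABC, -0.11 for Slco and -0.19 for Slc22. Within the ABC family, Abca had 6 higher and 2 lower of 10 probes (60.0% and 20.0%). Abcc had none higher and 3 lower of 7 (42.9%), beside 37.4% and 37.6% of all probes. However, 2 of the Abcc probes and none of the Abca probes are every 8th probes, and Abcc3, one of these, averaged 0.60 after place correction. Calls that held with and without the place correction, and with and without the 4 arrays that stood apart, numbered 19 higher and 25 lower, against 31.3% and 30.9% of all probes. Of these, 5 higher and 2 lower were of Abca, and none higher and 2 lower of Abcc. A mean beyond 0.2 was called for 11 higher and 10 lower members (limma treat), against 14.6% and 18.6% of all probes. The test sets the strains against a single reference pool, so it leaves out the spread of C57BL/6J itself, and a dye effect on a probe cannot be told apart from its mean.

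**Figure D1:**
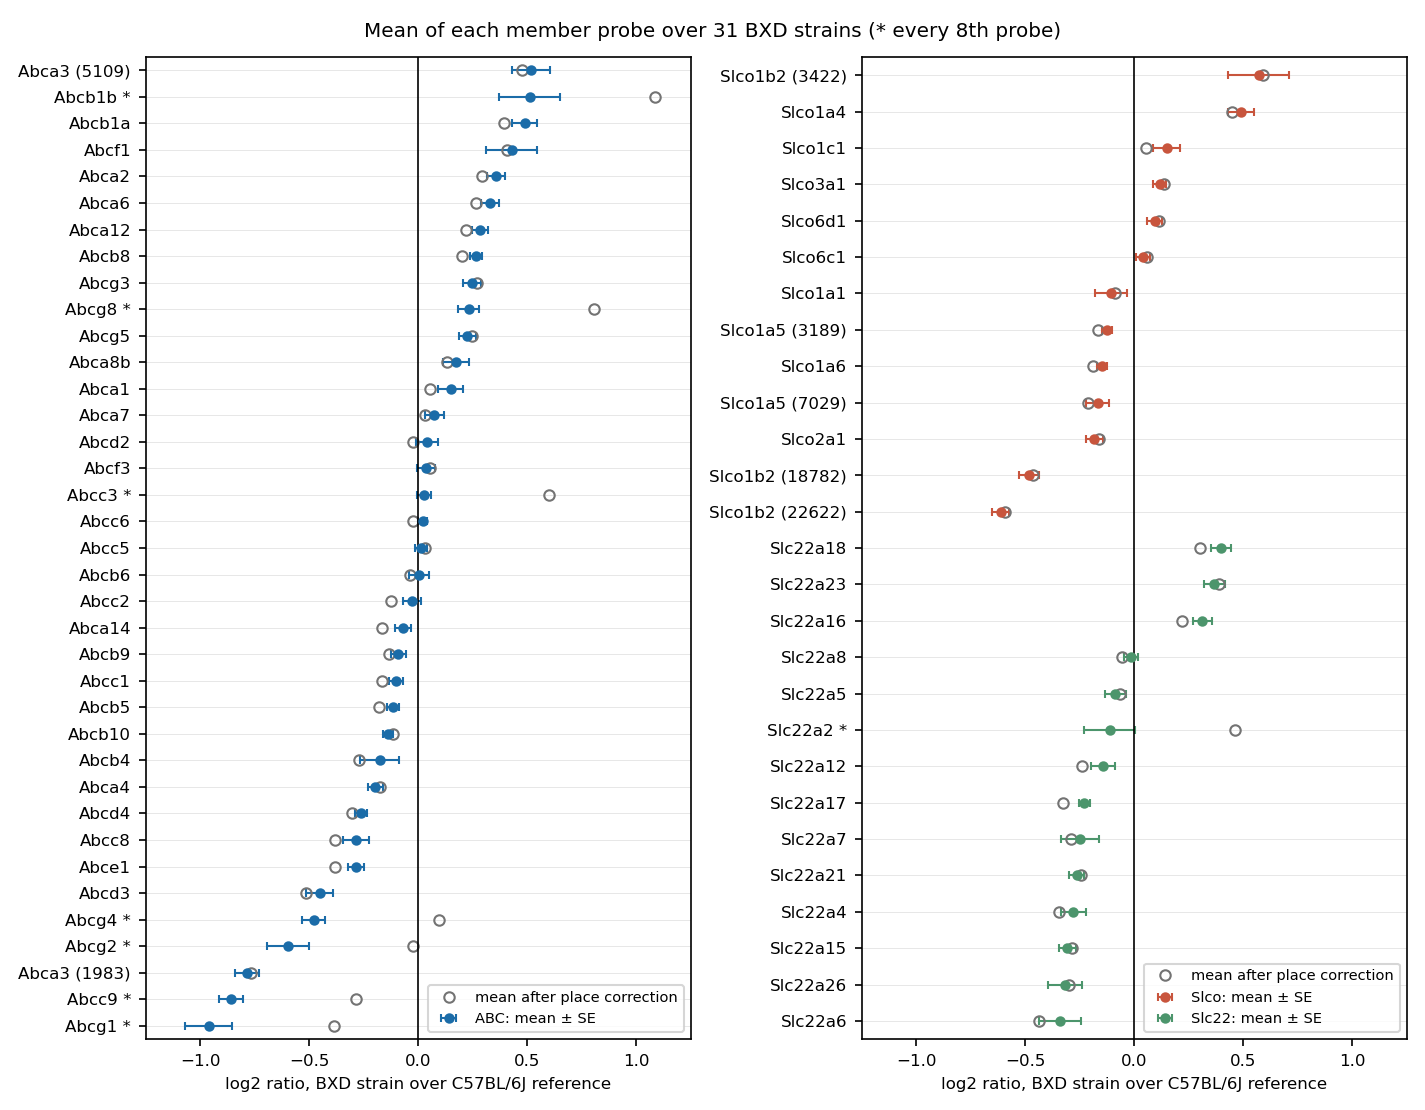
Mean log2 ratio of strain over reference (horizontal axis) of the 64 member probes, with ABC probes on the left and Slco and Slc22 probes on the right. Filled points are means over 31 strains with their SE, open circles the means after place correction, and an asterisk marks an every 8th probe. Means run between -0.96 (Abcg1) and 0.57 (Slco1b2, probe 3422), and the open circles part from the filled points at the asterisks, where the correction raised the means.

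Among the carriers that load the hepatocyte from the blood, Slco1a4 was higher in the strains and Slc22a7 lower, and the 3 probes of Slco1b2 did not point the same way. Of the 6 probes of this group, 2 were higher, 3 lower and 1 not called. Slco1b2, the hepatocyte carrier of bile acids, conjugated bilirubin and statins, was measured by probe 3422 at -0.39 in the lowest strain, 0.27 at the median and 2.82 in the highest. Probe 18782 had -0.80, -0.51 and 0.38, and probe 22622 had -0.91, -0.66 and 0.18. The first probe was above 0 in 25 strains, while probes 18782 and 22622 were each below 0 in 30 strains. The mean was 0.57 ± 0.14 for probe 3422 (SE, n = 31, adjusted p = 2.51e-04), -0.48 ± 0.05 for probe 18782 (adjusted p = 1.00e-11) and -0.61 ± 0.04 for probe 22622 (adjusted p = 2.31e-15). No direction is stated for the gene as a whole, since the sources used here do not say which part of the transcript each probe matches.

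At probe 3422 the strains formed separate groups. Strains 14, 31, 12 and 19 lay between 2.13 and 2.82, and the other 27 strains lay between -0.39 and 0.96, with a gap of 1.17 between the groups. Over those 27 strains the mean was 0.30 with an SD of 0.33. In these 4 strains, the probes with the adjacent identifiers were between -0.33 and 0.01. Within the other 27 strains the correlation was 0.07 between probes 3422 and 18782 and -0.14 between 3422 and 22622, against 0.31 between 18782 and 22622. The promoter of Slco1b2 is shown because the gene has the widest probe of its family and lies in the Slco cluster of chromosome 6. The window runs over chr6:141629268-141629567 on the plus strand of GRCm38.p6 (RefSeq), and capitals mark TATAAA, the TATA box core, and GTTAAT, a site core of HNF1, searched on both strands.
Slco1b2: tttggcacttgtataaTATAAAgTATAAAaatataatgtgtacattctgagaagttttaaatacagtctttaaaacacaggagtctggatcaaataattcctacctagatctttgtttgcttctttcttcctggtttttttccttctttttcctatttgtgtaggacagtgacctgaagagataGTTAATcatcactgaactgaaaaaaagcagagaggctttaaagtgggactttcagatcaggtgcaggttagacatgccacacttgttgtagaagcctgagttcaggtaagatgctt
The window held 2 matches of TATAAA, both near its far upstream end, and 1 of GTTAAT, which did not overlap. Whether any of these matches is used was not tested. Over 32851 promoter windows of the same length, 13.6% held TATAAA or its reverse complement and 7.10% held GTTAAT or its reverse complement. Windows were found for 47 of the 60 member genes, 52 windows in all, of which 13 held the first motif and 3 the second.

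Slco1a4, which takes up bile acids and digoxin, had -0.34 in the lowest strain, 0.50 at the median and 1.21 in the highest. It was above 0 in 29 of 31 strains, and its mean was 0.49 ± 0.06, or 1.40-fold (adjusted p = 3.95e-09). Slco1a1, a carrier of sulphated steroids and bile acids, had -1.18, -0.13 and 0.95, with strain 5 lowest and strain 8 highest, and its mean of -0.11 ± 0.07 did not pass (adjusted p = 0.159), but -0.17 without the 4 arrays that stood apart did (adjusted p = 0.0284). Slc22a7, a carrier of organic anions, had -1.64, -0.15 and 0.62. Its lowest values, -1.64 and -1.36, were in strains 23 and 42, which are among the arrays that stood apart. Its mean was -0.25 ± 0.09 (adjusted p = 0.0060), and -0.17 without the 4 arrays (adjusted p = 0.0061).

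Of the canalicular exporters, Abcb1a, Abcb1b, Abcg5 and Abcg8 were higher in the strains, Abcg2 was lower by its deposited values, and Abcb4 and Abcc2 did not pass. Abcb1a and Abcb1b encode the P-glycoproteins, which pump drugs and lipophilic compounds out of cells. Abcb1a had -0.19 in the lowest strain, 0.46 at the median and 1.03 in the highest, and 30 of 31 strains were above 0. Its mean was 0.49 ± 0.06 (1.40-fold, adjusted p = 1.18e-09). Abcb1b, an every 8th probe, had -2.47, 0.49 and 1.70, with 28 strains above 0 and strain 38 far below the rest. Its mean was 0.51 ± 0.14 (adjusted p = 7.48e-04), 0.61 without strain 38 and 1.08 after place correction. Abcb4, which carries phosphatidylcholine into bile, had -2.77, -0.09 and 0.31, and strain 38 was again the lowest, with the next strain at -0.35. The mean of Abcb4 was -0.18 ± 0.09 (adjusted p = 0.0607). It passed as lower without strain 38, at -0.09 (adjusted p = 0.0058), without the 4 arrays, at -0.21 (adjusted p = 0.0475), and after place correction, at -0.27 (adjusted p = 0.0047). Abcc2, which exports conjugated bilirubin, had -0.59, -0.02 and 0.62, and its mean of -0.03 ± 0.04 did not pass (adjusted p = 0.540), but did after place correction, at -0.13 (adjusted p = 0.0083).

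Abcg5 and Abcg8 form the heterodimer that secretes cholesterol and plant sterols into bile. Abcg5 had -0.28 in the lowest strain, 0.24 at the median and 0.59 in the highest, and the 4 arrays that stood apart, together with 1 other strain, were the 5 strains below 0. Its mean was 0.23 ± 0.04 (1.17-fold, adjusted p = 6.09e-06). Abcg8, an every 8th probe, had -0.45, 0.20 and 0.82, with 27 strains above 0, and its mean was 0.23 ± 0.05 (adjusted p = 2.97e-05). After place correction its mean was 0.80, so its size depends on the correction but its direction does not. Abcg2, an exporter of urate, porphyrins and drugs and also an every 8th probe, had -1.36, -0.76 and 0.91. Its mean of -0.60 ± 0.10 (adjusted p = 5.74e-07) became -0.02 after place correction (adjusted p = 0.774), and its call did not hold.

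Abcg5 and Abcg8 are neighbours on chromosome 17, transcribed away from each other, and their promoter windows are shown because the genes share their promoter region and were fixed as a pair for the correlations below. The Abcg5 window runs over chr17:84682962-84683261 on the minus strand and the Abcg8 window over chr17:84682871-84683170 on the plus strand of GRCm38.p6 (RefSeq). They share 209 bases. Capitals mark TATAAA and AGATAA, a core of sites for GATA factors, or their reverse complements.
Abcg5: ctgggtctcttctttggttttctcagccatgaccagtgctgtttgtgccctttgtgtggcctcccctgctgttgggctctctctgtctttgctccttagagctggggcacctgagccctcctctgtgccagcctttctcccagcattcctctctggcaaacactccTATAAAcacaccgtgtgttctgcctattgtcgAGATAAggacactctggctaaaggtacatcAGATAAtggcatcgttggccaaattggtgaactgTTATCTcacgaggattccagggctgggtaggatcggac
Abcg8: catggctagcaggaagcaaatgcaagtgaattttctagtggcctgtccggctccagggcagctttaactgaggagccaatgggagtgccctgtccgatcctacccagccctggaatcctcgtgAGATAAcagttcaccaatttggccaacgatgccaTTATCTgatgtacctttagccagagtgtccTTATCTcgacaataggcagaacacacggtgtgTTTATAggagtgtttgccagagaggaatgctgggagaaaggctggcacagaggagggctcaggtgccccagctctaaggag
Each window held 1 match of TATAAA and 3 of AGATAA, without overlap, all of them in the shared bases. AGATAA was found in 11.2% of all windows and in 6 of the 52 member windows.

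Among the basolateral exporters, which return conjugates to the blood, Abcc1 was lower, and Abcc5 and Abcc6 did not pass. Abcc3 did not pass by its deposited values but was higher after place correction. By the deposited values none of 4 probes was higher, 1 was lower and 3 did not pass. Abcc1, a glutathione conjugate exporter, had -0.63 in the lowest strain, -0.10 at the median and 0.29 in the highest. Its mean was -0.10 ± 0.03 (adjusted p = 0.0083). It did not pass without the 4 arrays (-0.07, adjusted p = 0.0521), and it was -0.17 after place correction (adjusted p = 2.70e-05). Abcc3, an exporter of glucuronides and bile salts and an every 8th probe, had -0.31, 0.04 and 0.44. Its mean of 0.03 ± 0.03 (adjusted p = 0.468) became 0.60 after place correction (adjusted p = 1.43e-13), so whether it differed from the reference depends on that correction. Abcc5, which exports cyclic nucleotides, averaged 0.01 ± 0.03, and Abcc6, needed for ATP release by hepatocytes, 0.02 ± 0.02, and neither passed (adjusted p = 0.707 and 0.478). Their SDs of 0.15 and 0.12 were among the smallest, at percentiles 4.63 and 0.515 of all tested probes. Abcc4 and Slc22a3 of this list were not analysed here.

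Among the exporters of cholesterol and phospholipid, Abca2 was higher, Abcg1 was lower, and Abca3 was called in both directions by its own probes. By the deposited values Abca1 was higher and Abcg4 lower, but after place correction the call of Abca1 was lost and the direction of Abcg4 turned. Of 7 probes in the group, 3 were higher, 3 lower and 1 not called. Abca1, which loads apolipoprotein A-I in the formation of HDL, had -0.30 in the lowest strain, 0.10 at the median and 1.36 in the highest, with strain 15 far above the next value of 0.76. Its mean was 0.15 ± 0.06 (adjusted p = 0.0175), and the call was lost after place correction (0.05, adjusted p = 0.407). Abca2, a lysosomal lipid transporter, had -0.20, 0.38 and 0.82, with 29 strains above 0 and a mean of 0.36 ± 0.04 (adjusted p = 8.34e-10). Abca3, which fills the lamellar bodies of lung with surfactant lipid, had a mean of 0.52 ± 0.09 by probe 5109 and of -0.79 ± 0.06 by probe 1983. Probe 1983 was below 0 in all 31 strains, and probe 5109 above 0 in 29. The correlation between these probes was 0.09 over the 31 strains, so no direction is given for the gene.

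Abcg1, which moves cholesterol to HDL, had -1.71 in the lowest strain, -1.19 at the median and 0.64 in the highest. It is an every 8th probe, and the strains above 0 were 3 of the 4 whose arrays stood apart. Its mean was -0.96 ± 0.11, or 0.513 times the reference (adjusted p = 3.10e-10), and it remained lower after place correction (-0.39, adjusted p = 1.02e-04). Abcg4, known mainly from brain and also an every 8th probe, averaged -0.48 ± 0.05, but its direction turned with the place correction (0.09, adjusted p = 0.0233). Abca7, a phagocytosis-related relative of Abca1, averaged 0.07 ± 0.04 and did not pass (adjusted p = 0.131), but did at 0.12 without the 4 arrays (adjusted p = 0.0051). In the chromosome 11 cluster of Abca genes, Abca6 averaged 0.33 ± 0.04 (adjusted p = 1.49e-08) and Abca8b 0.17 ± 0.06 (adjusted p = 0.0070). Both were higher in the strains, and Abca5, Abca8a and Abca9 were not analysed here.

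The transporters of peroxisomes and lysosomes were lower or did not pass. Abcd3, which takes long-chain and branched fatty acids into peroxisomes, had -1.43 in the lowest strain, -0.35 at the median and 0.03 in the highest, with 29 strains below 0. Its mean was -0.45 ± 0.06, or 0.731 times the reference (adjusted p = 4.06e-08). Its relative Abcd2, a carrier of very long-chain fatty acids, had -0.27, -0.04 and 1.12, with strain 38 highest, and its mean of 0.04 ± 0.05 did not pass (adjusted p = 0.477). Abcd4, which is needed for cobalamin to leave lysosomes, averaged -0.26 ± 0.03 (adjusted p = 3.16e-09), and Abcb9, a lysosomal peptide transporter, -0.09 ± 0.03 (adjusted p = 0.0165).

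In the mitochondrial group Abcb8 was higher, Abcb10 lower and Abcb6 did not pass. Abcb8, linked to mitochondrial iron export, had -0.31, 0.27 and 0.51, and 30 of 31 strains were above 0. Its mean was 0.26 ± 0.03 (adjusted p = 2.50e-09). Abcb10, involved in haem synthesis, averaged -0.14 ± 0.02 (adjusted p = 1.68e-05), and Abcb6, a porphyrin transporter, 0.00 ± 0.04 (adjusted p = 0.933). Among the soluble ABC proteins Abce1, which splits ribosomes after translation, was below 0 in 29 strains, with a mean of -0.29 ± 0.04 (adjusted p = 3.12e-08). Abcf1, a translation initiation factor, had -0.24 in the lowest strain, 0.23 at the median and 2.46 in the highest. Strains 38, 36 and 20 lay between 2.08 and 2.46 and the other 28 at 0.64 or below, with probes of adjacent identifiers between -0.25 and 0.57 in those 3 strains. The mean of Abcf1 was 0.43 ± 0.12 (adjusted p = 7.17e-04), against 0.23 over the other 28 strains. Abcf3 averaged 0.04 ± 0.04 and did not pass (adjusted p = 0.415).

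The sulphonylurea receptors, regulatory subunits of potassium channels and not transporters themselves, were both lower. Abcc9, an every 8th probe, was below 0 in all 31 strains, between -1.50 and -0.20, with a mean of -0.86 ± 0.05 (adjusted p = 2.96e-16). After place correction its mean was -0.29. Abcc8, known from pancreatic beta cells, averaged -0.28 ± 0.06 (adjusted p = 3.99e-05).

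In the Slc22 family the carnitine carriers were lower where they passed. Slc22a4, a carrier of ergothioneine, had -0.98 in the lowest strain, -0.25 at the median and 0.73 in the highest, with a mean of -0.28 ± 0.06 (adjusted p = 3.51e-05). Strains 15 and 21 were its lowest and highest strains. Slc22a21, a carnitine carrier of the same chromosome 11 cluster, averaged -0.26 ± 0.03 and was below 0 in 29 strains (adjusted p = 4.03e-08). Slc22a5, the main plasma membrane carnitine carrier, averaged -0.09 ± 0.05 and did not pass (adjusted p = 0.0949), but did at -0.12 without the 4 arrays (adjusted p = 0.0183).

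Of the 4 Slc22 probes for carriers known mainly from kidney, 2 were lower and 2 did not pass. Slc22a6, the organic anion exchanger of the proximal tubule, had -1.93 in the lowest strain, -0.18 at the median and 0.31 in the highest. Strains 23, 42 and 40 were its lowest strains and strain 28 its highest, so all 4 of the arrays that stood apart lie at its ends. Its mean was -0.34 ± 0.10 (adjusted p = 0.0013), and -0.21 without these arrays (adjusted p = 6.49e-04). Slc22a12, a urate exchanger, averaged -0.14 ± 0.05 (adjusted p = 0.0132), -0.09 without the 4 arrays and -0.24 after place correction, and was lower in each case. Slc22a8, an organic anion exchanger, averaged -0.02 ± 0.03 (adjusted p = 0.669). Slc22a2, a cation carrier and an every 8th probe, had -0.96, -0.22 and 1.30, and strains 40, 23 and 42 were its 3 highest. Its mean was -0.11 ± 0.12 (adjusted p = 0.354), -0.26 without the 4 arrays (adjusted p = 0.0115) and 0.46 after place correction (adjusted p = 2.60e-05), so neither its direction nor its call is settled. Of 6 probes for markers of the kidney proximal tubule, none was higher and 4 were lower, against 37.4% and 37.6% of all probes. Both probes of Lrp2 were among the lower ones, and 3 of the 4 calls held in all 4 settings of arrays and place correction. The part of other tissue in these ratios was not tested.

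The other Slc22 probes, in no list of known hepatic roles, included the highest means of the family. Slc22a18 averaged 0.40 ± 0.05 (adjusted p = 1.64e-09), Slc22a23 0.37 ± 0.05 (adjusted p = 2.08e-08) and Slc22a16 0.31 ± 0.04 (adjusted p = 6.85e-08). Each was above 0 in at least 28 strains. Slc22a18 is an imprinted gene, Slc22a23 a member without an established substrate, and Slc22a16 a carnitine carrier known from human testis. On the lower side, Slc22a26 averaged -0.32 ± 0.08 (adjusted p = 3.28e-04), Slc22a15 -0.31 ± 0.04 (adjusted p = 9.91e-09) and Slc22a17 -0.23 ± 0.02 (adjusted p = 3.33e-09). Slc22a26 was widest of these, with -1.71 in strain 28 and 0.33 in strain 13.

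For Slco members known mainly from other tissues, 3 of 8 probes were higher, 4 lower and 1 not called, with means between -0.18 and 0.15. Slco2a1, the prostaglandin carrier, averaged -0.18 ± 0.04 (adjusted p = 1.49e-04). Slco3a1, also a prostaglandin carrier, averaged 0.12 ± 0.03 with 25 strains above 0 (adjusted p = 0.0012). Slco1c1, the thyroxine carrier of the blood-brain barrier, averaged 0.15 ± 0.06 (adjusted p = 0.0228), and its call was lost after place correction (0.05, adjusted p = 0.413). Both probes of Slco1a5, known from intestine, were lower, at -0.12 ± 0.02 and -0.17 ± 0.05 (adjusted p = 6.98e-05 and 0.0035). Slco1a6 averaged -0.15 ± 0.02, with the smallest SD of the Slco family, 0.12. Slco6d1 averaged 0.09 ± 0.03 and was higher (adjusted p = 0.0159), and Slco6c1, 0.04 ± 0.03, did not pass (adjusted p = 0.290).

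The remaining ABC members showed no common direction. Abca12, which carries lipids of the skin barrier, averaged 0.28 ± 0.04 (adjusted p = 3.02e-08), and Abca4, the retinoid transporter of photoreceptors, -0.20 ± 0.03 (adjusted p = 9.20e-06). Abca14 averaged -0.07 ± 0.04 and did not pass (adjusted p = 0.0765), but did at -0.17 after place correction (adjusted p = 7.89e-05). Abcg3 averaged 0.25 ± 0.04 (adjusted p = 3.11e-06) and Abcb5 -0.12 ± 0.03 (adjusted p = 4.44e-04), or -0.18 after place correction.

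The second question was how widely the transporters varied across strains. The SD over strains had a median of 0.25 for the members, against 0.24 for all tested probes, and of 0.24 for ABC, 0.23 for Slco and 0.27 for Slc22. Without the 4 arrays that stood apart, the median was lower in each family, at 0.22 for ABC and 0.19 for Slco. The median of all tested probes under that setting is not given here. 8 of the 64 members had an SD of at least 0.5, against 7.27% of all probes, and 4 of these 8 were every 8th probes. They were Slco1b2 (probe 3422, 0.79), Abcb1b (0.78), Slc22a2 (0.65), Abcf1 (0.65), Abcg1 (0.61), Slc22a6 (0.55), Abcg2 (0.54) and Abcb4 (0.50). Since no strain had a second array, differences between strains and array error cannot be told apart.

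The wide members reached their SD in different ways. A gap of over 1 between neighbouring strains was present in 4 of the 64 members, Slco1b2 (probe 3422), Abcf1, Abcb1b and Abcb4, against 5.18% of all probes. In Abcb1b and Abcb4 the gap set strain 38 alone below the others. Without strain 38 the SD of Abcb4 was 0.14 and that of Abcb1b 0.55, so Abcb1b stayed wide and Abcb4 did not. Strain 38 had a median correlation of 0.57 with the other arrays, the lowest after the 4 arrays that stood apart. Without those 4 arrays the SD was 0.29 for Slc22a6, 0.36 for Abcg2, 0.40 for Abcg1 and 0.51 for Slc22a2. At the other end, Abcc6 and Slco1a6 had an SD of 0.12.

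**Figure D2:**
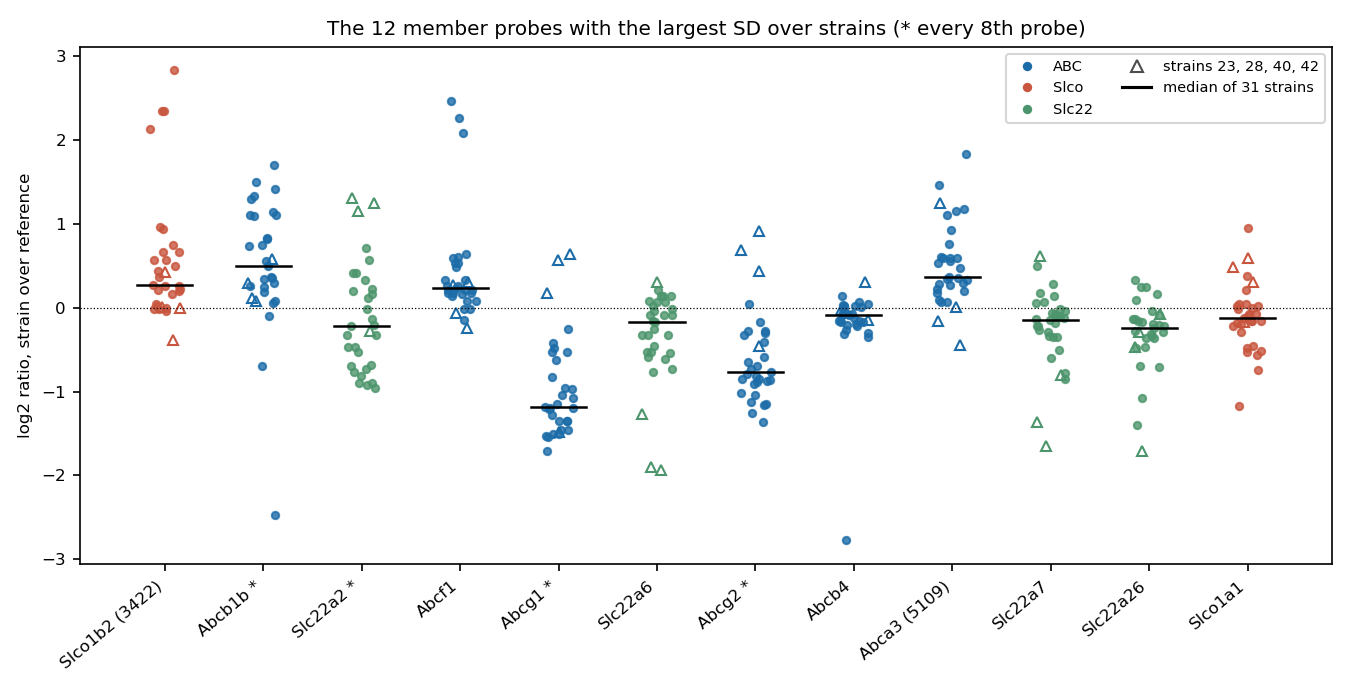
Log2 ratio of strain over reference (vertical axis) in each of 31 strains for the 12 member probes with the largest SD, coloured by family, with a line at the median and open triangles for strains 23, 28, 40 and 42. Strains 12, 14, 19 and 31 in Slco1b2 (2.13 to 2.82), strains 20, 36 and 38 in Abcf1 (2.08 to 2.46) and strain 38 in Abcb1b (-2.47) and Abcb4 (-2.77) stand off from the other points, and triangles lie at the ends of Slc22a2, Abcg1 and Slc22a6.

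**Figure D3:**
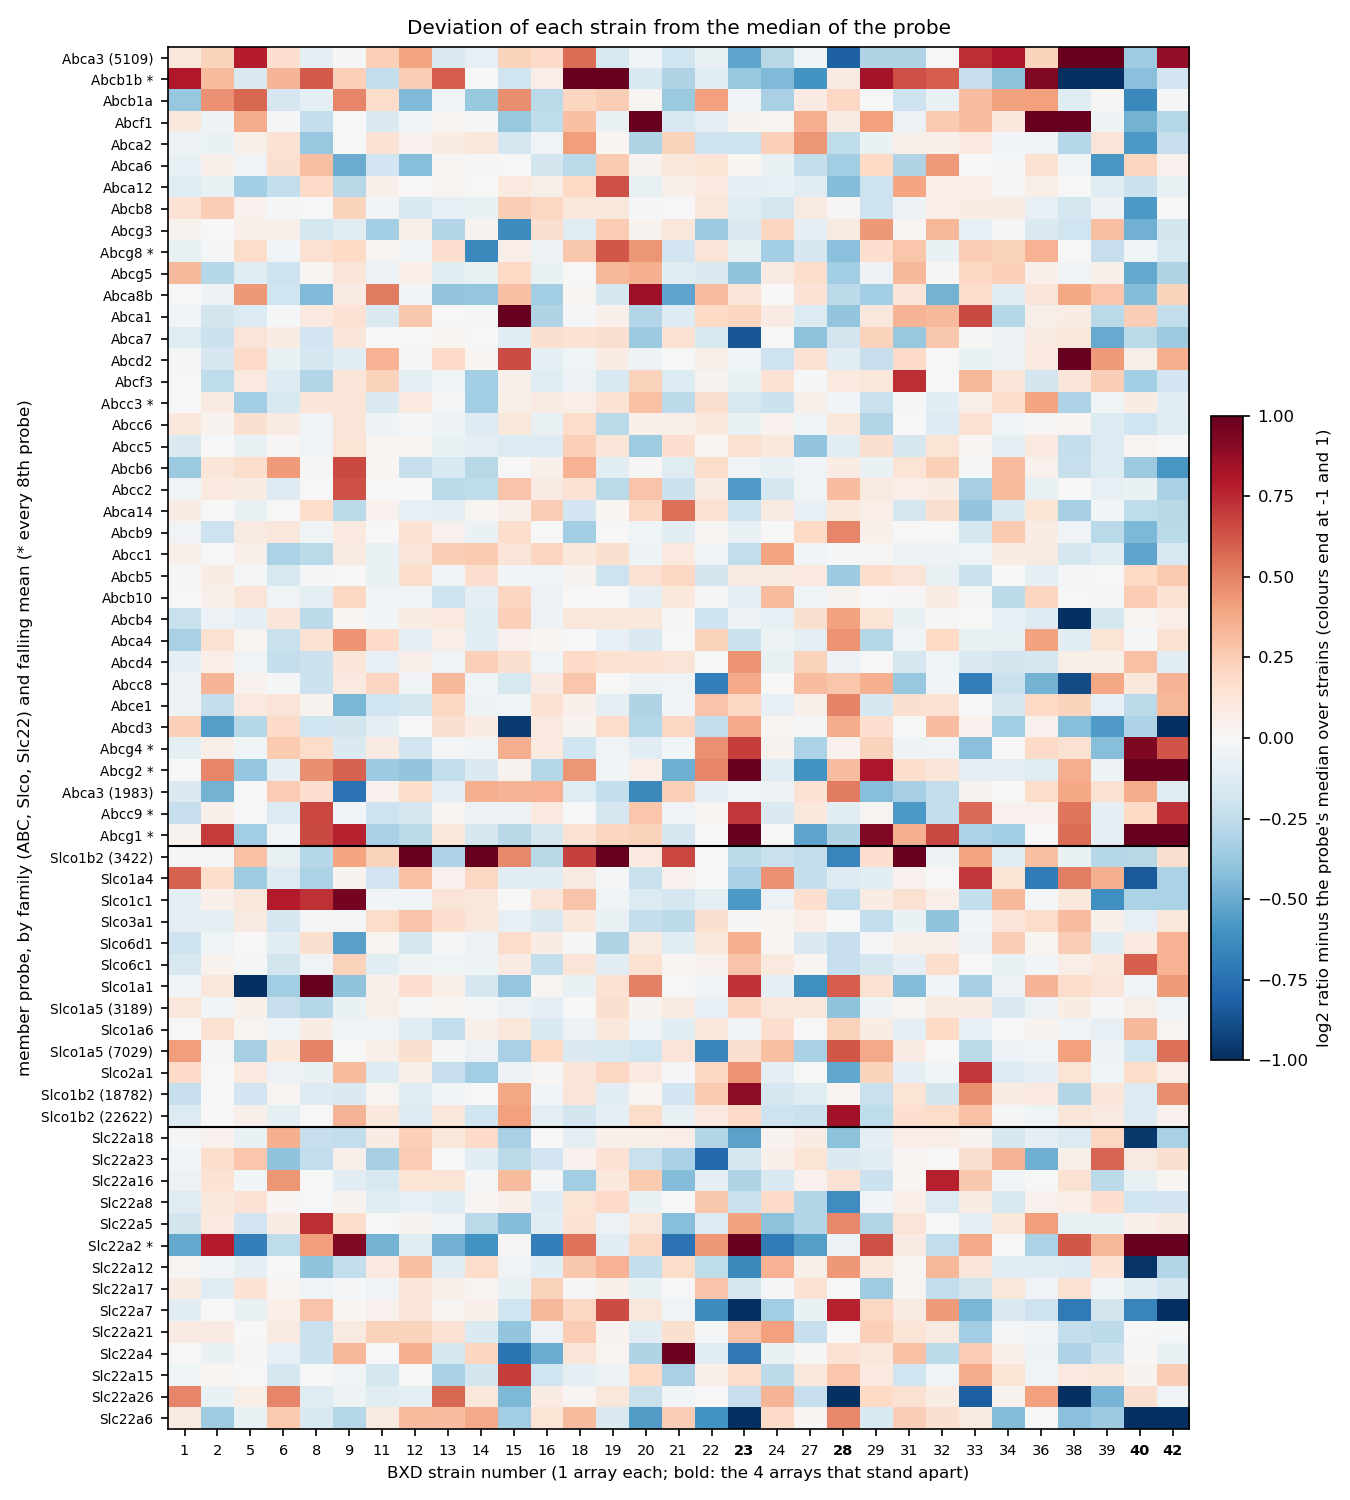
Deviation of each strain (columns, by strain number) from the median of the probe, in log2 units, for the 64 member probes (rows, by family and falling mean). Red is above and blue below the median, with colours ending at -1 and 1. No family moves together as a block of rows, but the every 8th probes of Abcg1, Abcg2 and Slc22a2 do vary together (r between 0.82 and 0.91). Among the strongest colours are Slco1b2 (probe 3422) in strains 12, 14, 19 and 31 and Abcf1 in strains 20, 36 and 38.

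The third question was whether members of a family moved together from strain to strain. The mean pairwise Pearson r over the 31 strains was 0.004 for the ABC probes (jackknife SE 0.007), -0.008 for Slco (SE 0.023) and 0.006 for Slc22 (SE 0.020). Over all members it was 0.002, and over all tested probes 0.001. Of the 2016 pairs of member probes, 6 had an r of at least 0.7 (0.298%, against 0.411% of all probe pairs) and 5 an r of -0.7 or below (0.248%, against 0.235%). The canalicular exporters had a mean r of 0.13 (SE 0.04, 21 pairs), which was 0.20 without the 4 arrays that stood apart and 0.11 without strain 38. The sinusoidal carriers had a mean r of -0.01 (SE 0.05, 15 pairs). The 8 every 8th members had a mean r of 0.26, which was 0.11 after place correction. All 2532 every 8th probes together had 0.18, and 0.004 after the correction. Without the 4 arrays that stood apart, the mean r was 0.23 for the 8 members and 0.03 for all every 8th probes. With the correction as well it was 0.15 and 0.005. The 54 pairs of genes within 1 Mb of each other, most of them in the Slco cluster on chromosome 6, had a mean r of -0.001, and the other 1957 pairs of different genes one of 0.002.

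**Figure D4:**
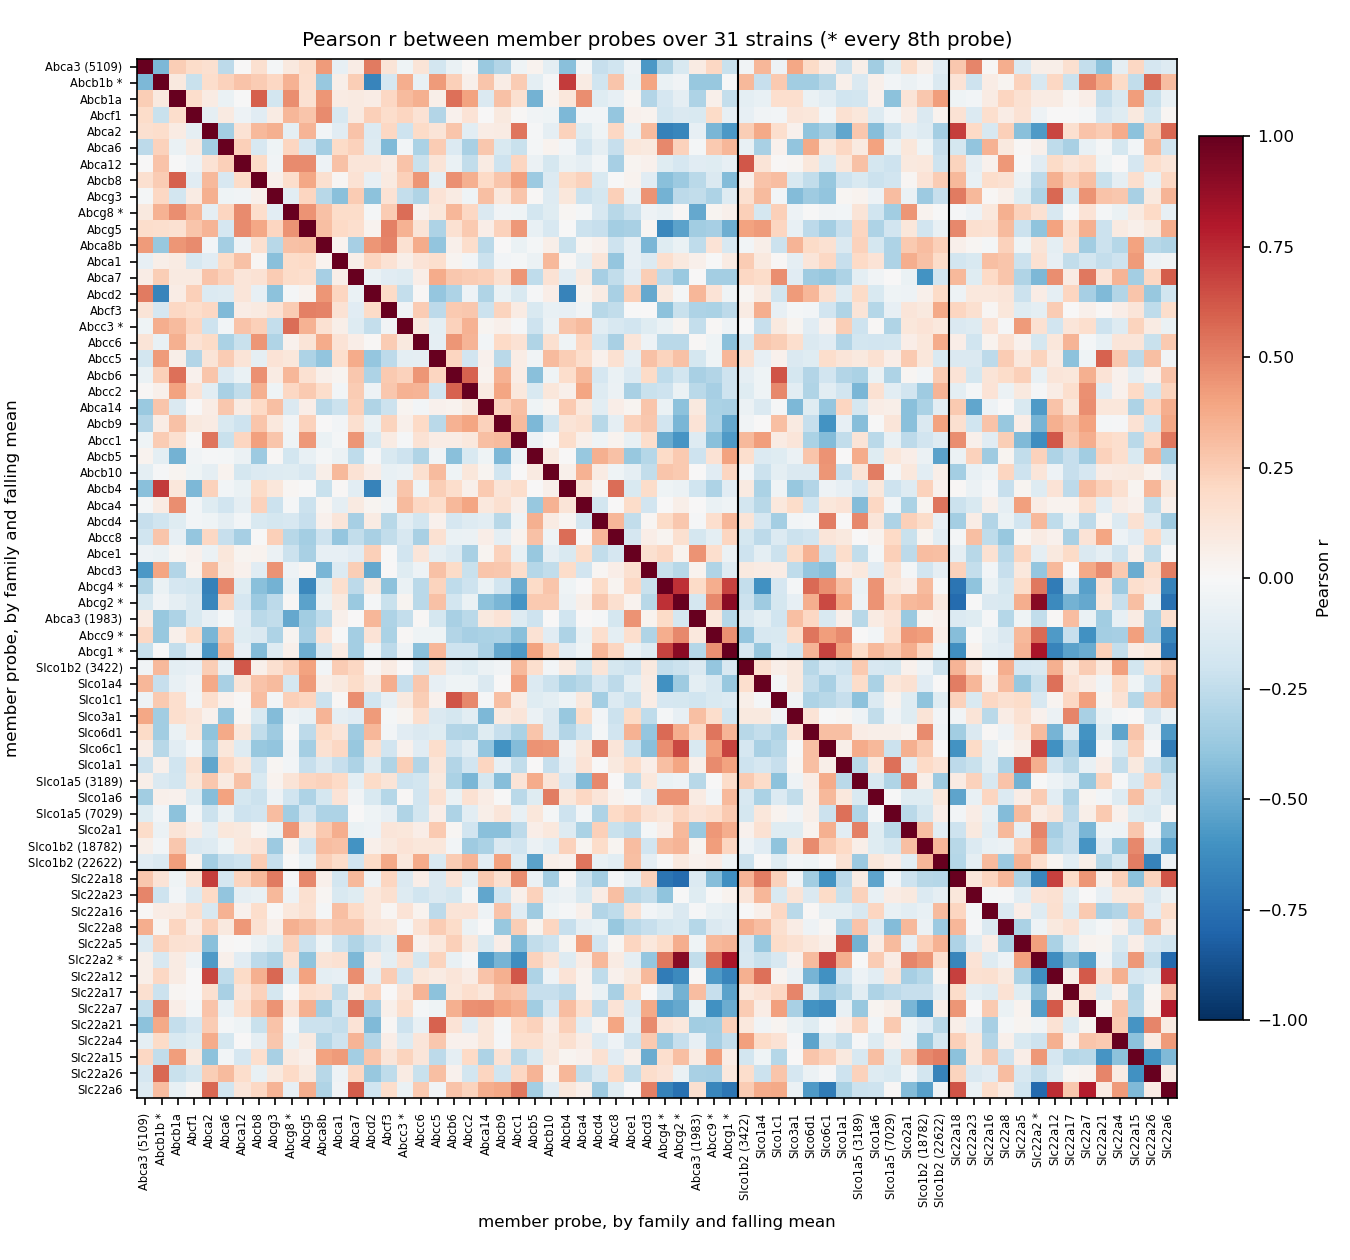
Pearson r over 31 strains between all pairs of the 64 member probes, ordered by family (black lines) and falling mean, with red for positive and blue for negative r. No family block stands out (mean r 0.004, -0.008 and 0.006), and the darkest red off the diagonal is at Abcg2, Abcg1 and Slc22a2 (0.82 to 0.91).

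As a description over the 31 strains, whose arrays all probes share, the 5 pairs with the highest r were Abcg2 with Slc22a2 (0.91), Abcg1 with Abcg2 (0.90), Abcg1 with Slc22a2 (0.82), Slc22a6 with Slc22a7 (0.78) and Slc22a12 with Slc22a6 (0.73). The first 3 pairs are every 8th probes, in which strains 23, 40 and 42 were high. Without the 4 arrays that stood apart their r was 0.84, 0.83 and 0.64, and after place correction 0.86, 0.85 and 0.72. For Slc22a6 with Slc22a7 it was 0.34 without the 4 arrays, and for Slc22a12 with Slc22a6 0.55. The 5 pairs with the lowest r were Slc22a6 with Slc22a2 (-0.77), Abcg2 with Slc22a18 (-0.77), Slc22a6 with Abcg2 (-0.75), Abcg4 with Slc22a18 (-0.73) and Slc22a6 with Abcg1 (-0.72). Each of these pairs holds 1 every 8th probe and 1 probe at another place, and without the 4 arrays they lay between -0.57 and -0.23.

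Of 19 pairs written down for partners of a complex, neighbours in a gene cluster or carriers of the same membrane, 14 could be measured. None passed after adjustment over the 14 pairs (two-sided permutation test of Pearson r, 100000 resamples), 2 had an unadjusted p under 0.05, and none passed by Spearman's rho. Those 2 were Abcg5 with Abcg8 and Abcd2 with Abcd3. Abcg5 and Abcg8, partners in the sterol exporter, had r = 0.45 (permutation p = 0.0104, adjusted p = 0.0725) and rho = 0.44 (permutation p = 0.0139, adjusted p = 0.195). Without strains 40 and 23, the 2 farthest from the median of Abcg5, r was 0.48. The pair passed after place correction, with r = 0.69 (adjusted p = 5.60e-04), and with the first principal component removed, with r = 0.51 (adjusted p = 0.0417). It did not pass with the 4 arrays left out, at 0.38 (adjusted p = 0.314), nor with these left out after place correction, at 0.39 (adjusted p = 0.297). With strains 20 and 19 left out as well, r was 0.18 in both cases, so the size of r depended on few strains here too.

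Abcd2 and Abcd3, relatives in the peroxisome membrane, ran against each other, with r = -0.52 (permutation p = 0.0055, adjusted p = 0.0725) and rho = -0.36 (permutation p = 0.0506, adjusted p = 0.236). Without strains 38 and 15, the farthest from the median of Abcd2, r was -0.41, and without strain 38 alone -0.57 (adjusted p = 0.0256). Without strain 38 rho was -0.30 (permutation p = 0.105), and r was -0.32 with strains 15 and 39 also left out. The pair did not pass without strains 23, 28, 40 and 42, at r = -0.49 (adjusted p = 0.189) and rho = -0.25. With strains 38 and 15 left out as well, r was -0.18, so the size of r depended on few strains. The pair passed after place correction, at -0.52 (adjusted p = 0.0327), and with the first principal component removed, at -0.49 (adjusted p = 0.0475). In strain 15 Abcd2 was at 0.61 and Abcd3 at -1.31, and in strain 42 at 0.32 and -1.43. Abcc2 and Abcc3, exporters of bilirubin conjugates at opposite membranes, had r = 0.35 (adjusted p = 0.250). The P-glycoprotein genes Abcb1a and Abcb1b, neighbours on chromosome 5, had r = 0.10 (adjusted p = 0.709). Abcb1b with Abcb4, their other neighbour and not among the pairs written down, had r = 0.70 with strain 38 and 0.06 without it.

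For pairs with Slco1b2 (probe 3422) no correlation over all strains is given, since 4 strains lay apart at probe 3422. Within the other 27 strains r was -0.37 with Slco1a1 (adjusted p = 0.239), 0.07 with Slco1a4 (adjusted p = 0.799) and -0.05 with Slc22a7 (adjusted p = 0.823). Slc22a4 with Slc22a5 had r = -0.15 and Slc22a6 with Slc22a8 r = 0.08, and neither passed (adjusted p = 0.636 and 0.709). For probes of the same gene, r over the 31 strains was -0.30 for Slco1a5, 0.09 for Abca3 and 0.34 for Slco1b2 probes 18782 and 22622.

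**Figure D5:**
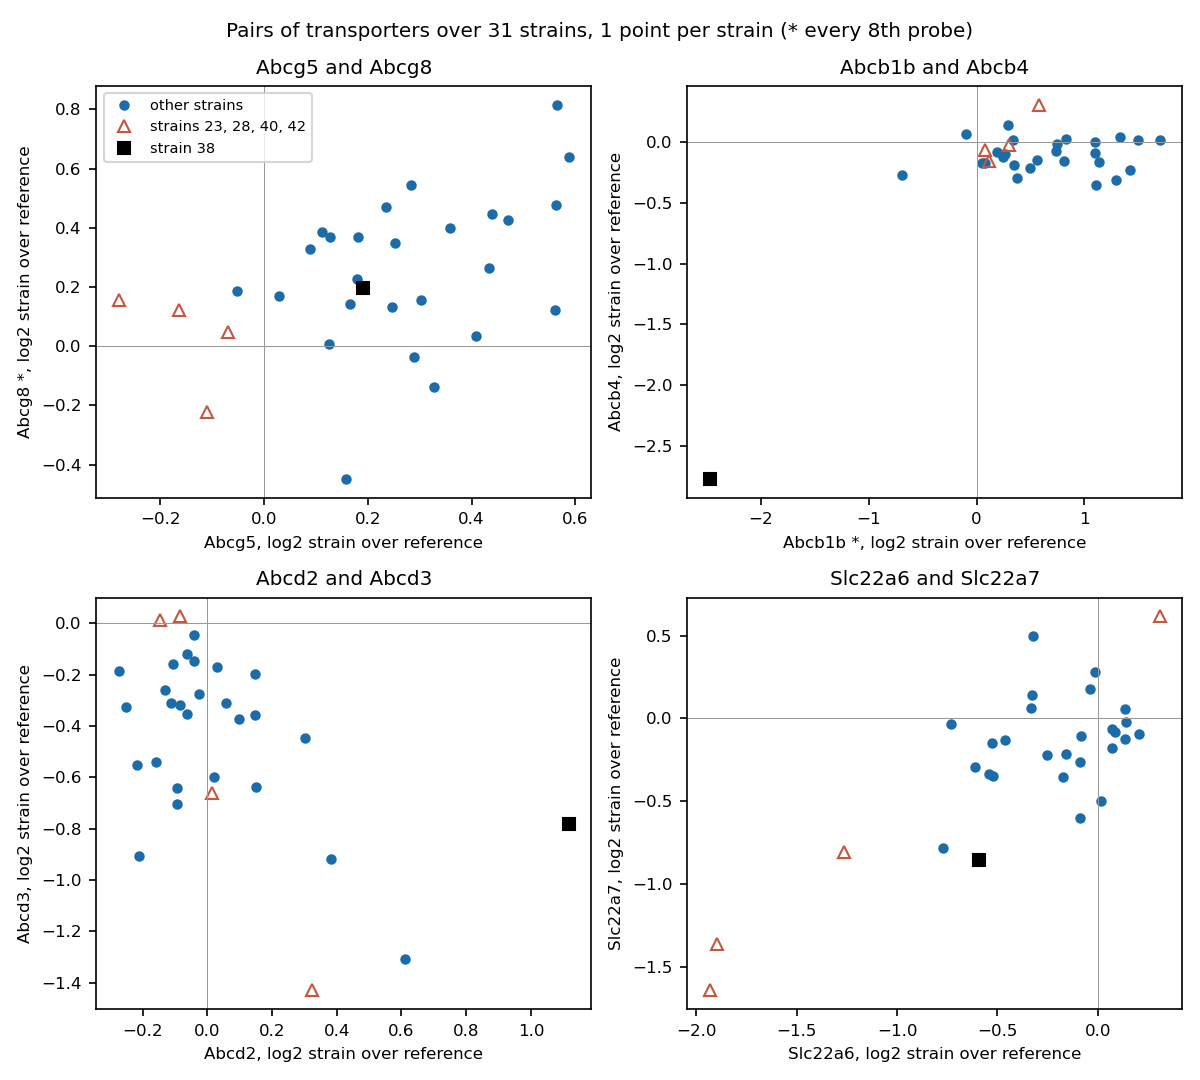
Log2 ratio of strain over reference for 4 pairs of transporters, with 1 point per strain, open triangles for strains 23, 28, 40 and 42 and a black square for strain 38. Abcg5 and Abcg8 rise together loosely (r = 0.45), Abcb1b and Abcb4 are joined by strain 38 (r = 0.70 with it and 0.06 without), Abcd2 and Abcd3 run against each other (r = -0.52), and Slc22a6 and Slc22a7 are low together in 3 of the strains that stood apart.

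The genes whose pattern over the 31 strains was most like that of the widest member of each family were found by Pearson r among all 1-gene probes. For Abcb1b these were Fcgr2b (0.93), Ercc6l (0.92) and Slc25a24 (0.91), of which Ercc6l and Slc25a24 are every 8th probes like Abcb1b. Without strain 38 their r was 0.87, 0.85 and 0.84, so the likeness did not rest on that strain alone. For Slc22a2 they were Tmem230 (0.96), Star (0.96) and Lrp2bp (0.93), all every 8th probes. For Slco1b2 (probe 3422) they were Ndufs3, Npy4r and Col8a2, and within the 27 strains other than 12, 14, 19 and 31 their r was 0.28, 0.35 and 0.05.

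Other hepatic transporters and the regulators of transport were set beside the members. Of 12 probes for other hepatic transporters, 8 were higher and 3 lower, against the 37.4% and 37.6% of all probes. Slc27a2 and Slc27a5, which activate fatty acids and bile acids, averaged 0.84 ± 0.10 and 0.72 ± 0.08 (adjusted p = 7.23e-10 and 2.69e-10), and Slc10a2, a sodium-dependent bile acid carrier, 0.41 ± 0.08 (adjusted p = 1.07e-05). Slc10a1, the sodium-dependent bile acid carrier of the sinusoidal membrane and an every 8th probe, averaged -0.50 ± 0.10 (adjusted p = 2.95e-05), and 0.08 after place correction. Of 15 probes for regulators of transport, 5 were higher and 8 lower, beside the same shares of all probes. Calls that held in all 4 settings of arrays and place correction numbered 5 higher and 6 lower. Those of Nr1i2 and Rxra, both every 8th probes, did not hold. Hnf4a, a nuclear receptor of hepatocytes, averaged -0.79 ± 0.06 by 1 probe and 0.20 ± 0.03 by another (adjusted p = 4.54e-15 and 3.06e-06). Nr1i2, the pregnane X receptor and an every 8th probe, averaged -0.41 ± 0.06 and 0.17 after place correction. Pdzk1, a scaffold of membrane transporters, averaged 0.36 ± 0.08 (adjusted p = 9.14e-05), and Nr1h4 -0.33 ± 0.03 (adjusted p = 7.30e-11).

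Markers of liver cell types were set beside the shares of all probes that were called, 37.4% as higher and 37.6% as lower. For hepatocytes 2 of 5 probes were higher and 2 lower, for cholangiocytes none of 4 was higher and 3 were lower, for Kupffer cells 3 of 5 were higher and none lower, for endothelial cells all 4 were higher, and for stellate cells 2 of 5 were higher and 2 lower. Of the endothelial calls 3 held in all 4 settings of arrays and place correction, and that of Cdh5 did not. Krt7, a cholangiocyte marker, is an every 8th probe, at -0.73 and, after place correction, -0.16. The score of a list, the mean deviation of a strain from the medians of its probes, ran between -0.57 (strain 15) and 0.48 (strain 24) for hepatocytes. For Kupffer cells it ran between -0.96 (strain 40, whose array stood apart) and 0.30 (strain 39). The part of these cell types in the transporter values was not tested. The ratios set liver against liver, so they cannot show how pure the tissue was.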

How the data were processed

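Liver RNA of 31 strains was measured on 2-colour arrays against a common reference. The authors deposited normalized ratios on a log scale, taken here as log2. The submitters' processing notes name limma and R 2.0.0. How background was corrected and arrays were normalized, the log base and the direction are not stated in what was used here. Strain over reference was assumed because the strain RNA carried the red dye, and the opposite reading would turn every sign. Of 23040 features, 21765 were complete over the arrays and entered the test. The platform annotation gave 1 gene for 16642 of them. Names, chromosomes and neighbours of all 64 members came from a RefSeq table of GRCm38.p6. 1 further gene of the ABC family is not reported here.

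Panel means were tested against 0 by an intercept model in limma 3.58.1 (R 4.3.3) with moderated variances, two-sided, adjusted by Benjamini-Hochberg over all tested probes at 0.05. The procedure was tested on simulated data. SE is the SD over strains divided by the square root of n, and folds are 2 to the power of the mean. These p-values test whether the mean over strains differs from 0, and their error term is the spread between strains, which includes array error. Correlations used 100000 permutations.

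Alternatives were leaving out strains 23, 28, 40 and 42, a place correction, both together, centring, limma treat beyond 0.2, a trended robust fit, a sign test, leaving out every 8th members, averaging the probes of a gene, Spearman's rho and removing the first principal component. Chosen after seeing the data were leaving out strain 38 or the high strains of Slco1b2.

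Any member in a role list could be named. In each family the rule also took, among called probes with at least 25 strains on their side of 0, the 3 highest and 3 lowest means, and further the 3 largest SDs, the 3 probes most like the widest member, and the 5 highest and 5 lowest pairs. Other lists gave at most 4 genes by absolute mean. The members, lists, pairs and settings were chosen with earlier results of these data known. Promoter windows are from RefSeq and cover 250 bases before to 50 after a gene's start.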

Additional observations from a re-analysis of the deposited data

How the results depend on the processing

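Of the 64 panel means, all kept their direction and their side of the threshold with arrays centred or with a trended robust fit, 63 without strain 38, 59 by the sign test, 57 without the 4 arrays that stood apart, 52 after place correction and 50 with both. Under limma treat beyond 0.2 the called members numbered 11 higher and 10 lower. Among members called before or after, direction turned for Abcg4, to 0.0942 after place correction and 0.0872 with the 4 arrays left out too, and for Slc22a2, to 0.46 and 0.38, because every 8th probes are raised by the correction. Among members not called under either setting, the sign turned for Abcd2, Abcb6 and Abcc6 after place correction, to -0.0256, -0.0378 and -0.0222, and for Slc22a8 without the 4 arrays, to 0.0253. By the sign test Abcd2 and Slc22a8 had more strains on the side opposite to their mean. The median SD of ABC probes was 0.22 with place correction and without the 4 arrays, and that of Slco probes 0.19 without the 4 arrays and 0.18 with the correction too. Without every 8th members the mean pairwise r was 0.0191 for ABC and 0.0423 for Slc22, and by Spearman's rho it was 0.0147 for ABC. Fixed pairs past the threshold numbered 2 after place correction, 2 with the first principal component removed (Abcg5 with Abcg8, r = 0.51, and Abcd2 with Abcd3, r = -0.49) and 1 without strain 38. No paired analysis was possible because each strain has 1 array and there is 1 group. Signal over background is unknown, so dim probes could not be set aside, and the number of arrays limits all values.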

Other observations

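The strains did not share the extreme values of the transporters evenly. Each member probe has a lowest and a highest strain, which makes 128 places over the 64 probes. Strain 28 took 18 of them (14.1%, against 11.5% over all tested probes), strain 40 took 17 (13.3%, against 13.1%), strain 23 took 9 (7.03%, against 8.93%), and strain 42 took 4 (3.12%, against 6.62%). Together the 4 arrays that stood apart held 48 places (37.5%, against 40.1%). Among the other strains, 9 and 15 took 7 each (5.47%, against 2.48% and 3.05%), and strains 11 and 12 took none. The highest value of Abcb8, 0.51, was the same in strains 2 and 15 and was counted for both.

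In strain 15 Abca1 and Slc22a15 were at their highest and Slc22a4, Slc22a21 and Slc22a5 at their lowest, with 1.36, 0.37, -0.98, -0.67 and -0.52 on the log2 scale. All 3 carnitine carriers of the chromosome 11 cluster therefore had their lowest value in the same strain. The next strain was close for each of them, with -0.97 in strain 23 for Slc22a4, -0.63 in strain 33 for Slc22a21 and -0.51 in strain 21 for Slc22a5. Over the 31 strains r was -0.15 for Slc22a4 with Slc22a5, 0.02 for Slc22a5 with Slc22a21 and 0.26 for Slc22a21 with Slc22a4. In strain 9 Abcc2, Abcb6, Slco1c1 and Abca4 were at their highest, with 0.62, 0.67, 1.07 and 0.23. Abca3 (probe 1983), Abce1 and Slco6d1 were at their lowest there, with -1.52, -0.76 and -0.45. These strains were picked after their values were seen, and no test was made.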
